A study of Mus musculus with 5 samples.

Results

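Col10a1-high chondrocytes were 817 cells of the 82516 that passed the cell filters in 5 single-cell libraries of mouse growth plate cartilage. A cell was taken when Col10a1, the gene for the type X collagen of hypertrophic cartilage, held at least 10 of every 10000 UMIs of the cell (UMIs are the molecule tags that single-cell counts are made from, and this scaled count is written k), and when its UMIs of Col2a1, the type II collagen gene, outnumbered those of Col1a1, the type I collagen gene. Cells with fewer than 200 or more than 6000 genes, or with over 10% of UMIs from mitochondrial genes, had been removed beforehand. The cells, which are called members in the plots, were thus selected on the measured UMIs of these 3 collagen genes, whose levels are given as a description without a test.

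The libraries came from 5 littermate pups, given in the labels as C57BL/6J, each pup giving 1 library. The 2 WT pups are labelled wild type, and the 3 mutant pups were heterozygous for a conditional Trpv4 p.R594H knock-in allele, which encodes an activated form of the TRPV4 calcium channel. In the mutant pups the allele was switched on by a Col2a1-Cre transgene, whose expression is selective for chondrocytes, so that cells that never expressed Cre would not carry the activated channel. Whether the WT pups carried the Cre transgene or the knock-in allele without Cre is not stated. The Cre line had begun on a mixed background before it was bred to C57BL/6J. The tissue was femoral and tibial growth plate cartilage of the knee, dissected, digested with enzymes and captured with the BD Rhapsody system. Age is given as postnatal day 5 in the sample labels and as day 3 in the design text. Pups are numbered 1 and 2 (WT) and 3, 4 and 5 (mutant), and the values of the pups are given in that order.

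In a growth plate, chondrocytes divide in columns, leave the cell cycle and enlarge into hypertrophic chondrocytes, which secrete type X collagen, mineralize their matrix and prepare it for invasion by vessels and bone cells. Prehypertrophic cells secrete Indian hedgehog (Ihh), which keeps up production of parathyroid hormone-related protein (PTHrP), and PTHrP signals back through its receptor, Pth1r, to hold chondrocytes short of hypertrophy. The last hypertrophic cells next to bone turn on genes shared with osteoblasts, among them Ibsp and Spp1, which encode the mineral-binding matrix proteins bone sialoprotein and osteopontin, and Mmp13, which encodes a collagenase that opens the cartilage matrix.

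Col10a1 lies at chr10:34389981-34397085 on the plus strand (GRCm38/mm10, GENCODE M21 annotation). It sits inside Nt5dc1, a gene on the minus strand at chr10:34288288-34418552, so that reads of the pair cannot be told apart where counting ignored strand, which was not stated. Ibsp (chr5:104299171-104311469), Spp1 (chr5:104435118-104441050) and the matrix gene Dmp1 (chr5:104202613-104214102) are neighbours on chromosome 5, and Mmp13 is at chr9:7272514-7283331. The windows below are shown because these 4 genes marked the cell type. Each holds the 250 bases before and the 50 bases after the start of the gene in RefSeq (GRCm38.p6), with matches to the RUNX core TGTGGT (on either strand, so also ACCACA) and to the AP-1 motif TGANTCA in capitals.
Col10a1 (chr10:34389731-34390030, plus strand): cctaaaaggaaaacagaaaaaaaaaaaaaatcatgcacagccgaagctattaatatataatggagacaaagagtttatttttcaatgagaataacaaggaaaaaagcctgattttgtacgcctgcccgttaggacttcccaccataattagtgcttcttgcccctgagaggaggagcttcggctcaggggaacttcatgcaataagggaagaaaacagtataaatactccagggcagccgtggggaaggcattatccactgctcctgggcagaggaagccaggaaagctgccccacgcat
Ibsp (chr5:104299037-104299336, plus strand): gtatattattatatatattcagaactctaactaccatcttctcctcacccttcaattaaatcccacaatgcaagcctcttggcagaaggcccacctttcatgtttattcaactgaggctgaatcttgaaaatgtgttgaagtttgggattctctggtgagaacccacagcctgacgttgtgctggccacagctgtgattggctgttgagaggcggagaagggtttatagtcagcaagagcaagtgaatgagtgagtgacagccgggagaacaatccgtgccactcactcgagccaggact
Mmp13 (chr9:7272264-7272563, plus strand): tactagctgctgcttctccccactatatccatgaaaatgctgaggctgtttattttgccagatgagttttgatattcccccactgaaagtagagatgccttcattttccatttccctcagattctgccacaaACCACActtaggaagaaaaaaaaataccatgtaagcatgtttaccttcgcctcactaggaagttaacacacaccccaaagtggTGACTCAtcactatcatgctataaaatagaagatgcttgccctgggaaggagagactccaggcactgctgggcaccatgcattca
Spp1, first of 2 listed starts (chr5:104434861-104435160, plus strand): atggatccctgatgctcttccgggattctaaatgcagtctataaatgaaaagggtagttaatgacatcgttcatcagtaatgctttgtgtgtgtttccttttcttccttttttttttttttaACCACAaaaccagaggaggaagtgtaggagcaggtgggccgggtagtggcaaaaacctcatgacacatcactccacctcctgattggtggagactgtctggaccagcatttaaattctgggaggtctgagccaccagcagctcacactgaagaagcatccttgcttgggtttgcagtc
The Mmp13 window held a RUNX core 118 bases and an AP-1 motif 35 bases before the start. The Spp1 window held a RUNX core 128 bases before it. Neither motif was found in the windows of Col10a1 and Ibsp. Of 32851 windows of the same length, 16.8% held the RUNX core and 7.81% the AP-1 motif, and a match is a run of letters, not evidence of binding.

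The files held 84382 cells and between 117746735 and 183322632 UMIs per library over 29818 genes. Col10a1-high chondrocytes were deep cells, with 21005036 UMIs in all and a median between 22724 and 32156 UMIs per cell by pup, against 6000 to 9261 for all kept cells. Their median mitochondrial share was 4.92% to 5.07%, against 3.80% to 4.34% in chondrocytes low in Col10a1. A UMI of Xist was found in 97.4% and 98.7% of the members of mutant pups 3 and 4, in 1.23% of those of mutant pup 5 and in none of those of the WT pups, where a count of 0 in the 78 and 187 cells allows up to 3.85% and 1.60% of cells with a UMI. Ddx3y, on the Y chromosome, had the opposite pattern, so that mutant pups 3 and 4 stood apart from the other pups in genes that follow sex, and the test of the labels across genes was repeated without both, which leaves 1 mutant pup and calls 0 genes, a count that says little at this size. Pairs of libraries shared 3 to 7 cell barcodes. Doublets were not removed, because the automatic threshold of Scrublet, a doublet caller, marked no cell, and 16 of the 817 cells had a score over 0.25.

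Markers of blood and vessel cells were at low levels in the Col10a1-high chondrocytes, apart from erythroid markers in some pups. The summed level of the macrophage markers was 7.73 to 49.0 CPM (UMIs per 1000000 UMIs summed over the cells of 1 class in 1 pup), against 15867 to 17142 CPM in macrophages. Endothelial markers summed to 7.44 to 12.3 CPM and granulocyte markers to 1.44 to 5.46 CPM. Erythroid markers ranged from 3.38 to 1111 CPM, and 7 cells had hemoglobin UMIs at a k of 10 or more. The osteoblast markers, a list that includes Spp1 and Ibsp, summed to 4872 to 10229 CPM, against 184476 to 251757 CPM in osteoblast lineage cells, a gap set partly by the choice of the cells, since the list also holds Col1a1. Perichondrial markers, a list with Col1a1 as well, summed to 1163 to 4372 CPM in the members and 10114 to 12528 CPM in chondrocytes low in Col10a1, and tendon markers to 768 to 1414 CPM and 2924 to 4259 CPM.

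Col10a1 itself was concentrated in these cells. They held 321938 of the 336073 Col10a1 UMIs of all kept cells, or 95.8%. Within them the level ran over a wide range, with a median k of 77.3, a 10th percentile of 13.8, a 90th percentile of 417 and a highest value of 1732. At the edge of the rule, 56 cells had a k from 10 to 12 and 69 cells that were otherwise eligible had a k from 8 to 10 and were left out. The pups had median k values of 89.4, 75.4, 116, 47.1 and 51.4. Type II collagen remained the leading collagen, with Col2a1 at 64071 to 71035 CPM, against 77942 to 100720.0 CPM in chondrocytes low in Col10a1.

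**Figure D1:**
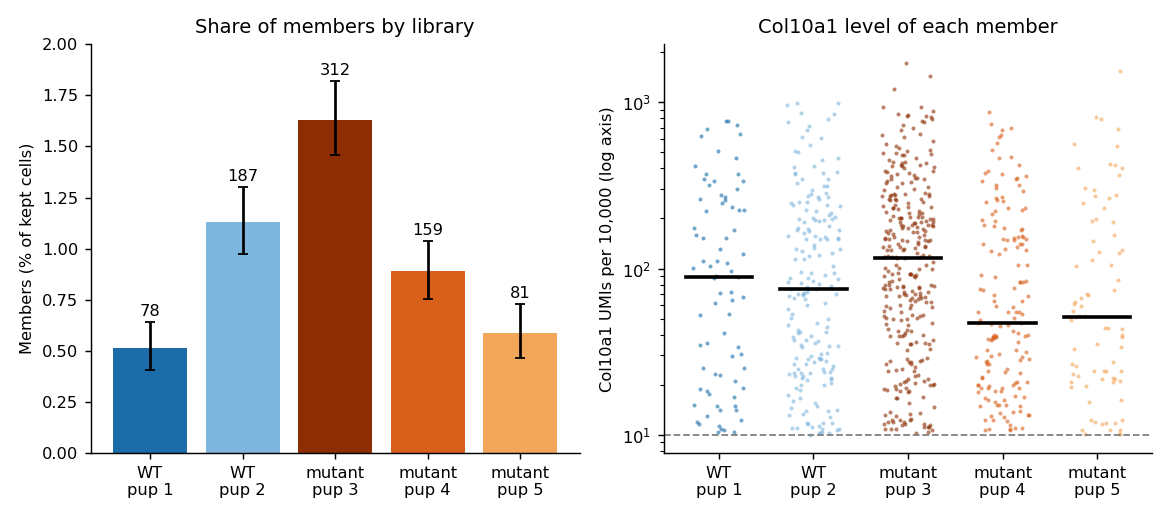
Left, Col10a1-high chondrocytes as a percent of the kept cells of each library, with exact 95% binomial intervals that cover counting error only, and their number above each bar. Right, the Col10a1 level of every member in UMIs per 10000 on a log axis, with the median of each pup as a bar and the lower limit of the rule, 10, as a dashed line. Shares ran from 0.516% in WT pup 1 to 1.63% in mutant pup 3, and pups of both labels overlapped in both panels.

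Col10a1-high chondrocytes made up 0.516% and 1.13% of the kept cells of the WT pups and 1.63%, 0.889% and 0.586% of those of the mutant pups. The exact 95% intervals of counting error were 0.408% to 0.643%, 0.974% to 1.30%, 1.46% to 1.82%, 0.757% to 1.04% and 0.466% to 0.728%, in the same order. The labels overlapped, WT pup 1 being lowest and mutant pup 3 highest. Their means were 0.822% ± 0.434 (SD, n = 2) and 1.04% ± 0.537 (SD, n = 3), and the difference of 0.213 percentage points was within the spread of the pups (2-sided exact permutation test, p = 0.7, where 0.1 is the smallest p that 2 against 3 pups allow). Without WT pup 1 or without mutant pup 3 the difference turned to -0.0938 and -0.0849. The upper limit of 6000 genes removed 77 cells that met the rest of the rule, 20, 48, 9, 0 and 0 by pup, which was 20.4% of such cells in WT pups and 1.60% in mutant pups. With no upper limit on genes the difference between the labels was 0.0272 percentage points (exact permutation test, p = 1).

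The label of hypertrophic chondrocytes rests on Col10a1 and on chondrocyte genes more than on the other 3 markers. Spp1 reached a k of 10 in 141 of the 817 cells (17.3%), Ibsp in 27 (3.30%) and Mmp13 in 24 (2.94%), while Ihh, a prehypertrophic marker, reached a k of 2 in 462 (56.5%). Each late marker was thus at this level in a minority of the cells, which are named by the rule here.

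To describe which genes accompany Col10a1, the members were compared with 44604 Col10a1-low chondrocytes of the same pups, defined as cells with a Col2a1 k of at least 100, Col2a1 UMIs above Col1a1 UMIs and a Col10a1 k under 10. UMIs were summed per pup and class and tested with the quasi-likelihood test of edgeR with the pup as a block, and a gene was called at a Benjamini-Hochberg adjusted p under 0.05 over all genes tested. The pups are littermates, and the p-values measure how the difference between the classes varied from pup to pup. Genes of the hypertrophy and mineralization list were mostly higher in the Col10a1-high chondrocytes, cell cycle, resting and articular genes were mostly lower, and hypoxia and glycolysis genes were mostly higher. Of 16769 genes tested, 26.3% were called higher and 30.7% lower, with a median log2 fold change of -0.07.

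Among 37 tested genes of hypertrophy and mineralization, 26 were called higher and 7 lower, with a median log2 fold change of 1.63. Ihh was at 333 and 500.3 CPM in the WT pups and 433, 407 and 346 CPM in the mutant pups in the Col10a1-high chondrocytes and at 8.18 to 25.1 CPM in the low class. Every pup lay far above its own low class, and WT and mutant pups overlapped within each class (log2 fold change 4.90 ± 0.23, adjusted p = 4.23e-05). The PTHrP receptor gene Pth1r was at 1219.6 and 1568 CPM in the WT pups and 1191, 849 and 858 CPM in the mutant pups, against 52.7 to 117 CPM in the low class (log2 fold change 3.78 ± 0.13, adjusted p = 9.27e-07). Pth1r was thus higher in the Col10a1-high class of every pup, with mutant pups 4 and 5 the lowest of the members. Alpl, which encodes the tissue-nonspecific alkaline phosphatase that frees phosphate for mineral, was at 677 and 596 CPM in the WT pups and 526, 439 and 394 CPM in the mutant pups, against 6.82 to 15.4 CPM (log2 fold change 5.69 ± 0.27, adjusted p = 5.41e-05). It was high in all 5 pups, the WT pups being above the mutant pups.

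The late markers were higher too. Spp1 was at 1049 and 956 CPM in the WT pups and 1104, 963 and 1082 CPM in the mutant pups, against 47.2 to 84.0 CPM in the low class (log2 fold change 3.91 ± 0.16, adjusted p = 6.99e-06), with WT and mutant pups overlapping. Ibsp was at 53.7 and 82.0 CPM in the WT pups and 90.4, 50.5 and 53.1 CPM in the mutant pups, against 2.04 to 8.49 CPM (log2 fold change 4.21 ± 0.19, adjusted p = 7.12e-07). Both genes were higher in all pups. Mmp13 was at 6.82 and 145 CPM in the WT pups and 189, 119 and 172 CPM in the mutant pups, against 1.96 to 12.03 CPM (log2 fold change 4.24 ± 0.91, adjusted p = 0.0171). WT pup 1 was below its own low class, with 15 Mmp13 UMIs, and the call was lost without any 1 of the mutant pups (adjusted p = 0.0748, 0.0588 and 0.0566 without pup 3, 4 and 5). Dmp1, a matrix protein gene of mineralizing bone, was at 20.01 to 57.0 CPM against 0.574 to 1.08 CPM. In each pup 1 cell held 50.5% to 98.3% of the Dmp1 UMIs of the members, and no fold is given for it.

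Panx3, which encodes a pannexin channel of prehypertrophic and hypertrophic cells, was at 2040.0 to 2489 CPM against 185 to 385 CPM (log2 fold change 3.07 ± 0.17 SE). Runx2, Sp7, Mef2c and Foxa2 encode transcription factors that drive hypertrophy and, for Runx2 and Sp7, osteoblast formation. They were called higher with log2 fold changes of 1.44 ± 0.06, 2.09 ± 0.09, 2.56 ± 0.08 and 2.45 ± 0.08, and each was higher in all 5 pups. Aldh1a3, an enzyme that makes retinoic acid, was among the largest changes, at 117 to 248 CPM against 1.49 to 3.73 CPM (log2 fold change 6.28 ± 0.11 SE). Slc13a5, the citrate transporter gene, was at 348 and 424 CPM in the WT pups and 428, 229 and 229 CPM in the mutant pups, against 18.1 to 25.5 CPM (log2 fold change 3.96 ± 0.19 SE), and was highest in WT pup 2 and mutant pup 3. Ddit4l and F13a1, the factor XIII A gene, were further large increases (4.67 ± 0.10 and 3.67 ± 0.27). Enpp1 and Ank, which supply the mineral inhibitor pyrophosphate, had log2 fold changes of -0.81 ± 0.07 and -0.88 ± 0.11. The call of Ank was lost among cells of at least 10000 UMIs (log2 fold change -0.25, adjusted p = 0.0809).

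Most genes of the cell cycle, resting and articular lists were lower in the Col10a1-high chondrocytes. In the cell cycle list 24 of 27 tested genes were called lower and 3 higher, with a median log2 fold change of -2.18. Top2a and Mki67, genes of dividing cells, were at 6.83 to 31.4 and 5.79 to 19.6 CPM against 161 to 199 and 77.3 to 119 CPM (log2 fold changes -3.45 ± 0.30 and -3.15 ± 0.12 SE). The 3 that rose, Cdkn1a, Cdkn1b and Cdkn1c (1.52 ± 0.05, 0.51 ± 0.07 and 2.07 ± 0.15 SE), encode inhibitors of the cell cycle. Cdkn1c was at 3340.1 and 5069 CPM in the WT pups and 5283, 2379.6 and 2932 CPM in the mutant pups and 712 to 1193 CPM in the low class (adjusted p = 0.000155). The list of proliferating zone markers was mixed, with 3 of 7 genes higher and 3 lower, and its sum was 9262 to 10946 CPM in the members and 6169 to 7916 CPM in the low class. None of the resting, articular and perichondrial marker lists had a member called higher, and 6 of 8, 5 of 7 and 9 of 10 tested genes were called lower. Prg4, the lubricin gene of the joint surface, was at 76.3 to 254 CPM against 2658 to 4256 CPM (-4.28 ± 0.27 SE), and Ucma, a resting-zone matrix gene, at 257 to 589.5 CPM against 2719.7 to 4647 CPM (-3.04 ± 0.15).

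Cartilage matrix genes did not move as one, with 12 of 22 tested genes called higher, 7 lower and a median log2 fold change of 0.15. Hapln1, which links aggrecan to hyaluronan, was at 13725 to 14979 CPM against 4449.9 to 4843 CPM (log2 fold change 1.67 ± 0.05 SE), and Acan, the aggrecan gene, at 6861 to 8439.8 CPM against 4706 to 5685 CPM (0.63 ± 0.04 SE). Sox9, the factor that keeps chondrocyte genes on, differed little (log2 fold change 0.14 ± 0.05, adjusted p = 0.0219), and the value was -0.12 when members were taken from a k of 50.

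In the PTHrP and hedgehog list, in which Ihh and Pth1r were counted, 2 of 14 were higher and 12 lower. Those that fell include the hedgehog receptor and target Ptch1 (log2 fold change -1.08 ± 0.13 SE), the target Gli1 (-2.42 ± 0.14), the inhibitor Hhip (-2.91 ± 0.20) and the co-receptor Gas1 (-3.78 ± 0.27), so that the hedgehog ligand was high where transcripts of its targets were low. Of 45 tested BMP and TGF-beta genes, 11 were higher and 23 lower. The ligand genes Bmp2, Bmp6 and Bmp8a rose by 1.30 ± 0.11, 2.10 ± 0.19 and 4.29 ± 0.24, and the antagonists Nog and Chrdl1 by 2.84 ± 0.08 and 3.28 ± 0.20, while the BMP antagonist Grem1 was lower (-3.73 ± 0.33). Of 27 tested Wnt genes, 10 were higher and 15 lower, with the ligands Wnt4, Wnt5b and Wnt10b among those that rose (2.84 ± 0.16, 2.28 ± 0.06 and 3.26 ± 0.13). In the FGF and natriuretic peptide list 12 of 17 fell, Fgfr1 among them (-1.38 ± 0.07), and 3 rose, including Fgfr3, the receptor gene that restrains bone growth (1.60 ± 0.06), and Npr3, the clearance receptor gene of natriuretic peptides (4.08 ± 0.39). The growth hormone and IGF list had 11 of 16 lower and 1 higher.

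Of 33 hypoxia and glycolysis genes, 20 were called higher and 3 lower (median log2 fold change 0.40), with the glucose transporter gene Slc2a1 at 1.20 ± 0.12 SE. Of 40 genes of protein folding and stress in the endoplasmic reticulum (ER), 19 were higher and 9 lower. Calcium and calcineurin genes were balanced, 15 higher and 14 lower of 34, and Stim1, the sensor of calcium stores, rose by 1.39 ± 0.10. Trpv4 was at 244 and 166 CPM in the WT pups and 158, 244 and 224 CPM in the mutant pups, against 222, 152, 149.6, 219 and 216 CPM in the low class of the same pups. The Col10a1-high and low classes were close, with WT pup 2 and mutant pup 3 lowest in both (log2 fold change 0.16 ± 0.05, adjusted p = 0.0119), and the call was lost among cells of at least 10000 UMIs (0.06, adjusted p = 0.409). Members were deeper than the low class in every pup. Of 59 genes named in the text for this comparison that were called, 52 were called in all alternative fits.

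**Figure D2:**
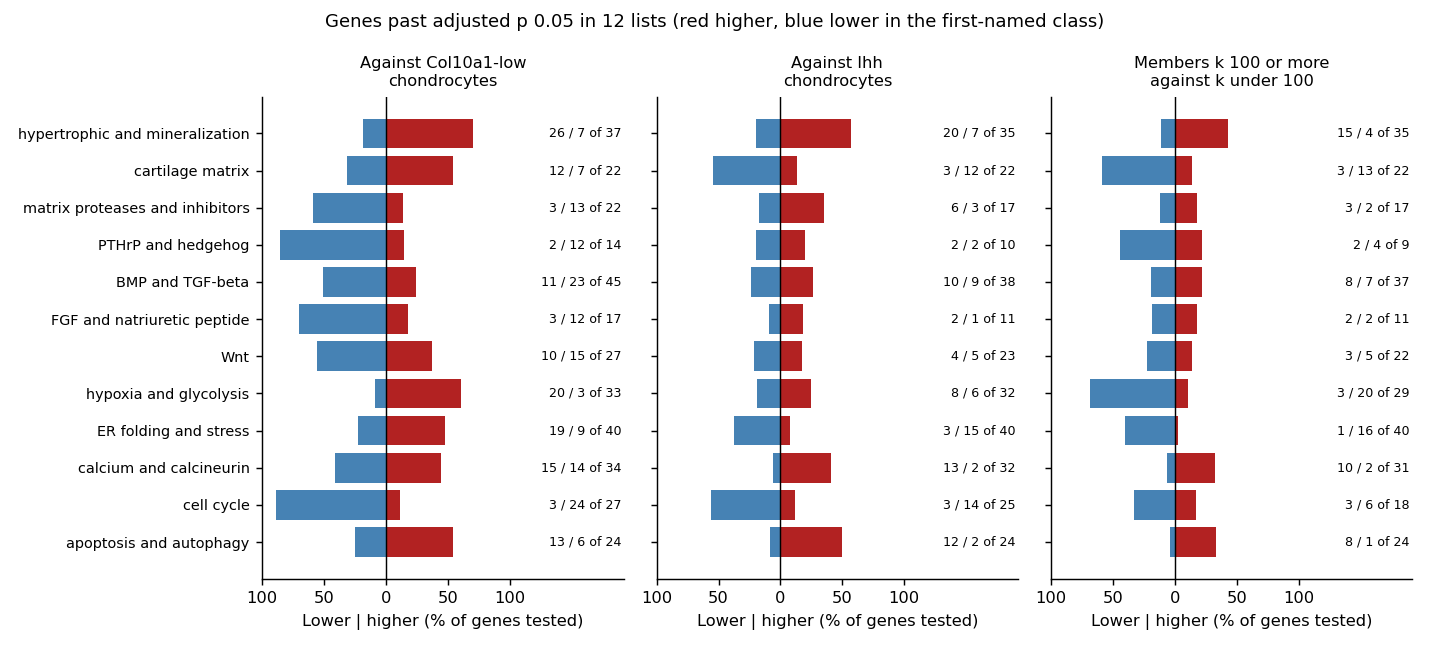
Percent of the tested genes of 12 lists that passed an adjusted p of 0.05, higher (red, right of 0) or lower (blue, left of 0) in the first-named class, for members against Col10a1-low chondrocytes, members against Ihh chondrocytes, and members with a Col10a1 k of 100 or more against those under 100. Numbers give genes higher, lower and tested. The hypertrophy list leaned to higher in all 3 panels (26 of 37, 20 of 35 and 15 of 35). The hypoxia list leaned to higher against the low class and to lower within the members. Against Ihh chondrocytes it was mixed, with 8 higher and 6 lower of 32.

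The nearest cells were chondrocytes with Ihh but little Col10a1, and 440 cells with an Ihh k of at least 2, more Col2a1 than Col1a1 UMIs and a Col10a1 k under 10 were taken for that comparison. Depth was close here, with medians between 20945.5 and 29135 UMIs in the Ihh chondrocytes. Against them, more genes of the hypertrophy and mineralization list were higher than lower in the Col10a1-high chondrocytes, Spp1 and Alpl among the former, and cartilage matrix and ER genes leaned lower. Of 10042 genes tested, 14.9% were called higher and 13.3% lower. Since Ihh chose the comparison cells, its levels (333 to 500.3 CPM in members and 365 to 434 CPM in Ihh chondrocytes) carry no test.

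In the hypertrophy and mineralization list 20 of 35 tested genes were higher and 7 lower, with a median log2 fold change of 0.34 against -0.01 over all genes. Alpl was at 115, 127, 99.98, 76.6 and 75.9 CPM in the Ihh chondrocytes, below the members of the same pup in each case (log2 fold change 2.42 ± 0.06, adjusted p = 3.28e-17). Spp1 was at 263, 121, 162, 233 and 373 CPM there (log2 fold change 2.30 ± 0.27, adjusted p = 0.00510). Ibsp stood at 0 to 4.05 CPM, Mmp13 at 0 to 11.4 CPM and Dmp1 at 0 to 0.623 CPM, at or near 0. These 3 genes could be tested only because the members had them, Mmp13 and Dmp1 in few cells, and neither a fold nor a test is given for them, though they are among the 20. Pth1r was also higher (0.73 ± 0.05, adjusted p = 1.41e-10), at 503 to 907 CPM in the Ihh chondrocytes. Runx2 did not pass the test (0.07 ± 0.05, adjusted p = 0.330), Sp7 was lower (-0.32 ± 0.06, adjusted p = 0.000203), and Mef2c and Foxa2 were higher by 0.48 ± 0.05 and 0.42 ± 0.07. Panx3 differed by 0.13 ± 0.04, adjusted p = 0.0304, a call that was lost with DESeq2 (adjusted p = 0.146).

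The largest increases outside the lists included Aldh1a3 (4.36 ± 0.27 SE), the homeobox gene Irx5 (3.40 ± 0.12), F13a1, the A subunit of the crosslinking factor XIII (2.96 ± 0.29), Ddit4l (2.80 ± 0.14), Mustn1 (2.55 ± 0.10) and Lox, the lysyl oxidase that crosslinks collagen (2.26 ± 0.18). Irx5 was at 69.6 and 112 CPM in the WT pups and 120.3, 63.8 and 114 CPM in the mutant pups, against 3.80 to 13.9 CPM, without overlap of the classes. Nt5dc1 was higher as well (2.60 ± 0.12), which is uncertain because it overlaps Col10a1. Among the genes that fell were Prelp, a leucine-rich matrix protein gene (-1.11 ± 0.10), Ucma (-1.03 ± 0.05), the type XV collagen gene Col15a1 (-1.10 ± 0.07), the fibulin gene Fbln7 (-1.09 ± 0.06) and Tgfbi (-0.97 ± 0.06).

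Calcium and calcineurin genes leaned higher, 13 of 32 against 2 lower. These included Stim1 (0.64 ± 0.09 SE), the store-operated channel gene Orai1 (0.87 ± 0.11), the mechanosensitive channel gene Piezo1 (0.95 ± 0.06) and the calcineurin-dependent factor Nfatc1 (0.67 ± 0.07). Trpv4 did not pass the test (-0.09 ± 0.05, adjusted p = 0.212). Apoptosis and autophagy genes were higher in 12 of 24 and lower in 2, with the autophagosome gene Map1lc3b at 1.14 ± 0.06. BMP and TGF-beta genes were higher in 10 and lower in 9 of 38, the ligands Bmp2, Bmp6 and Tgfb3 being higher (1.08 ± 0.08, 1.94 ± 0.07 and 0.93 ± 0.20). Fgfr1, an FGF receptor gene, was higher (1.19 ± 0.14), and the angiogenic factor gene Vegfa was higher by 0.49 ± 0.07. The hedgehog targets Ptch1 and Gli1 were again lower (-1.03 ± 0.13 and -1.36 ± 0.21). Hypoxia and glycolysis genes were mixed, 8 higher and 6 lower of 32 (median log2 fold change -0.075). That list summed to 9492 to 10761 CPM in the members and 9626 to 11916 CPM in the Ihh chondrocytes, so its high level was shared by both classes. Cartilage matrix genes were lower in 12 of 22 and higher in 3, with Sox9 lower (-0.35 ± 0.05, adjusted p = 0.000175), ER genes lower in 15 of 40 and higher in 3, and cell cycle genes lower in 14 of 25 and higher in 3. The number of genes called fell from 2835 to 1399 with DESeq2 and to 1544 without the pup block, and 31 of the 37 named genes that were called were called in all fits.

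To see how the Col10a1-high chondrocytes differed among themselves, those with a k of 100 or more were compared with those under 100 in each pup. With more Col10a1, most called genes of the hypertrophy and mineralization list were higher, and most genes of the cartilage matrix and the hypoxia and glycolysis lists were lower. In the calcium, the apoptosis and autophagy and the ER lists most genes were not called. Of 8896 genes tested, 11.5% were higher and 10.3% lower. The k of 100 divided the members into 453 and 364 cells, and for description they were also sorted into 4 bins, with 237 cells at a k of 10 to 30, 216 at 30 to 100, 228 at 100 to 300 and 136 at 300 or more. The median depth of the pups ran from 22525 to 30946 UMIs in the first bin, 22805 to 33976 in the second, 23210 to 38013 in the third and 19700 to 26615 in the last, with every pup lowest in the last bin.

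Alpl increased step by step. It was at 132, 306, 218, 170.0 and 173 CPM in the lowest bin and at 1241, 1167, 1117, 924 and 1309 CPM in the highest, without overlap (log2 fold change for the split at 100, 1.70 ± 0.12, adjusted p = 4.04e-05). Bmp6 ran from 48.1 to 110.2 CPM through 99.0 to 176 and 246 to 330.2 to 439 to 699 CPM (1.80 ± 0.15, adjusted p = 0.000200). Aldh1a3 ran from 5.64 to 29.8 to 489.8 to 889 CPM (3.36 ± 0.39, adjusted p = 0.00648). Map1lc3b rose through every bin, from 199.8 to 309 to 737 to 901 CPM (1.08 ± 0.06, adjusted p = 8.65e-12). These 4 genes rose gradually and in all pups.

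Other genes changed mainly in the last bin. Spp1 was at 222 to 686, 123 to 587 and 102 to 551 CPM in the first 3 bins and at 4276, 6506, 3842, 6891 and 6329 CPM in the last (2.59 ± 0.38, adjusted p = 0.0141). Ibsp was at no more than 82.5 CPM before the last bin and at 305 to 524 CPM in it (2.75 ± 0.58, adjusted p = 0.0386). Both calls were lost without WT pup 1, WT pup 2, mutant pup 4 or mutant pup 5 (adjusted p up to 0.0645 for Spp1 and 0.127 for Ibsp). Mmp13 was at 37.1, 1064, 483, 1091 and 1355 CPM in the last bin and at 218 and 217 CPM in the first 2 bins of mutant pup 3, and did not pass the test (2.73 ± 1.22, adjusted p = 0.218), though it was called with DESeq2 (4.18, adjusted p = 0.00112) and without mutant pup 3 (4.68, adjusted p = 0.0171). Dmp1 was at 125 to 450.4 CPM in the last bin and at most 1.45 CPM in the others, 1 cell holding over 50% of its UMIs in each of the 5 pups, and no fold or test is given for it. Fgfr1 was at 32.3 to 64.5 CPM in the third bin and 219.7 to 477 CPM in the last (1.82 ± 0.17, adjusted p = 5.73e-05).

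Sox9 went down, from 1957 to 3433 CPM in the first bin to 678 to 1036 CPM in the last (-0.72 ± 0.06, adjusted p = 5.40e-09). Prelp, Gdf10, a BMP-like ligand gene, and Ucma were among the genes with the largest decreases, going from 767 to 1117, 226 to 464 and 427 to 866 CPM to 89.0 to 145, 11.4 to 38.5 and 38.5 to 199.7 CPM. Their log2 fold changes were -1.32 ± 0.13, -1.67 ± 0.10 and -1.44 ± 0.08. In the cartilage matrix list 13 of 22 genes were lower and 3 higher with more Col10a1 (median -0.17). In the hypoxia and glycolysis list 20 of 29 were lower and 3 higher (median -0.34). The glycolytic enzyme genes Pgk1 and Ldha went from 1424 to 1629 and 819 to 870.2 CPM to 609 to 747 and 273 to 442 CPM (-0.51 ± 0.05 and -0.58 ± 0.06). The 3 that rose were Epas1, which encodes HIF-2 alpha (1.48 ± 0.21), the hexokinase gene Hk2 (0.35 ± 0.08) and Slc2a1 (0.26 ± 0.06). ER genes were lower in 16 of 40 and higher in 1, with Plod2, a collagen lysyl hydroxylase gene, going from 1835 to 2683 to 557 to 827 CPM (-0.77 ± 0.05).

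Within the hypertrophy list 15 of 35 genes were higher and 4 lower. Ihh was higher above the split (0.90 ± 0.12, adjusted p = 0.00180), but its level over the 4 bins was 164 to 363, 280.5 to 455, 394 to 740.1 and 269 to 702 CPM, and mutant pups 4 and 5 had less in the last bin than in the third while WT pup 2 and mutant pup 3 had more. Pth1r was lower in the last bin than in the third in every pup, with 1110.4 to 1747 CPM in the third bin and 871 to 1388 CPM in the last, though it was higher above the split (0.37 ± 0.06 SE). Runx2 (0.08 ± 0.09, adjusted p = 0.558) and Panx3 (0.01 ± 0.05, adjusted p = 0.891) did not pass the test, although Panx3 was called lower for a split at a k of 200 (-0.21, adjusted p = 0.00454). Phex, Galnt3 and Ank, genes of phosphate and pyrophosphate handling, were higher (2.46 ± 0.17, 1.37 ± 0.26 and 1.76 ± 0.18). Calcium genes were higher in 10 of 31 and lower in 2, apoptosis and autophagy genes higher in 8 of 24 and lower in 1. Nt5dc1, overlapping Col10a1, ran from 19.3 to 33.7 to 337 to 419.6 CPM (2.61 ± 0.09) and is uncertain for that reason.

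BMP and TGF-beta genes split in both directions, 8 higher and 7 lower of 37. Beside Bmp6, the ligand genes Bmp2, Bmp8a and Tgfb3 and the TGF-beta signal carrier Smad3 were higher with more Col10a1 (0.83 ± 0.15, 1.94 ± 0.25, 1.22 ± 0.21 and 1.11 ± 0.24 SE). The hedgehog target Ptch1 was lower (-1.09 ± 0.11), as were the chondrocyte factor Sox5 (-0.99 ± 0.09), Epyc, a proteoglycan gene of cartilage (-0.55 ± 0.06), the lactate transporter gene Slc16a3 (-1.42 ± 0.09) and the oxygen sensor gene Egln3 (-1.16 ± 0.20). Irx5 was at 18.5 to 38.1 CPM in the first bin and 136 to 389 CPM in the last (2.29 ± 0.12). The channel gene Piezo1 went from 106 to 144 to 204 to 326 CPM (0.78 ± 0.07), and Trpv4 did not pass the test (-0.09 ± 0.07, adjusted p = 0.372). The number of genes called, 1943, was 992 with DESeq2 and 988 without the pup block, and of the 35 named genes that were called, 27 were called in all fits.

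**Figure D3:**
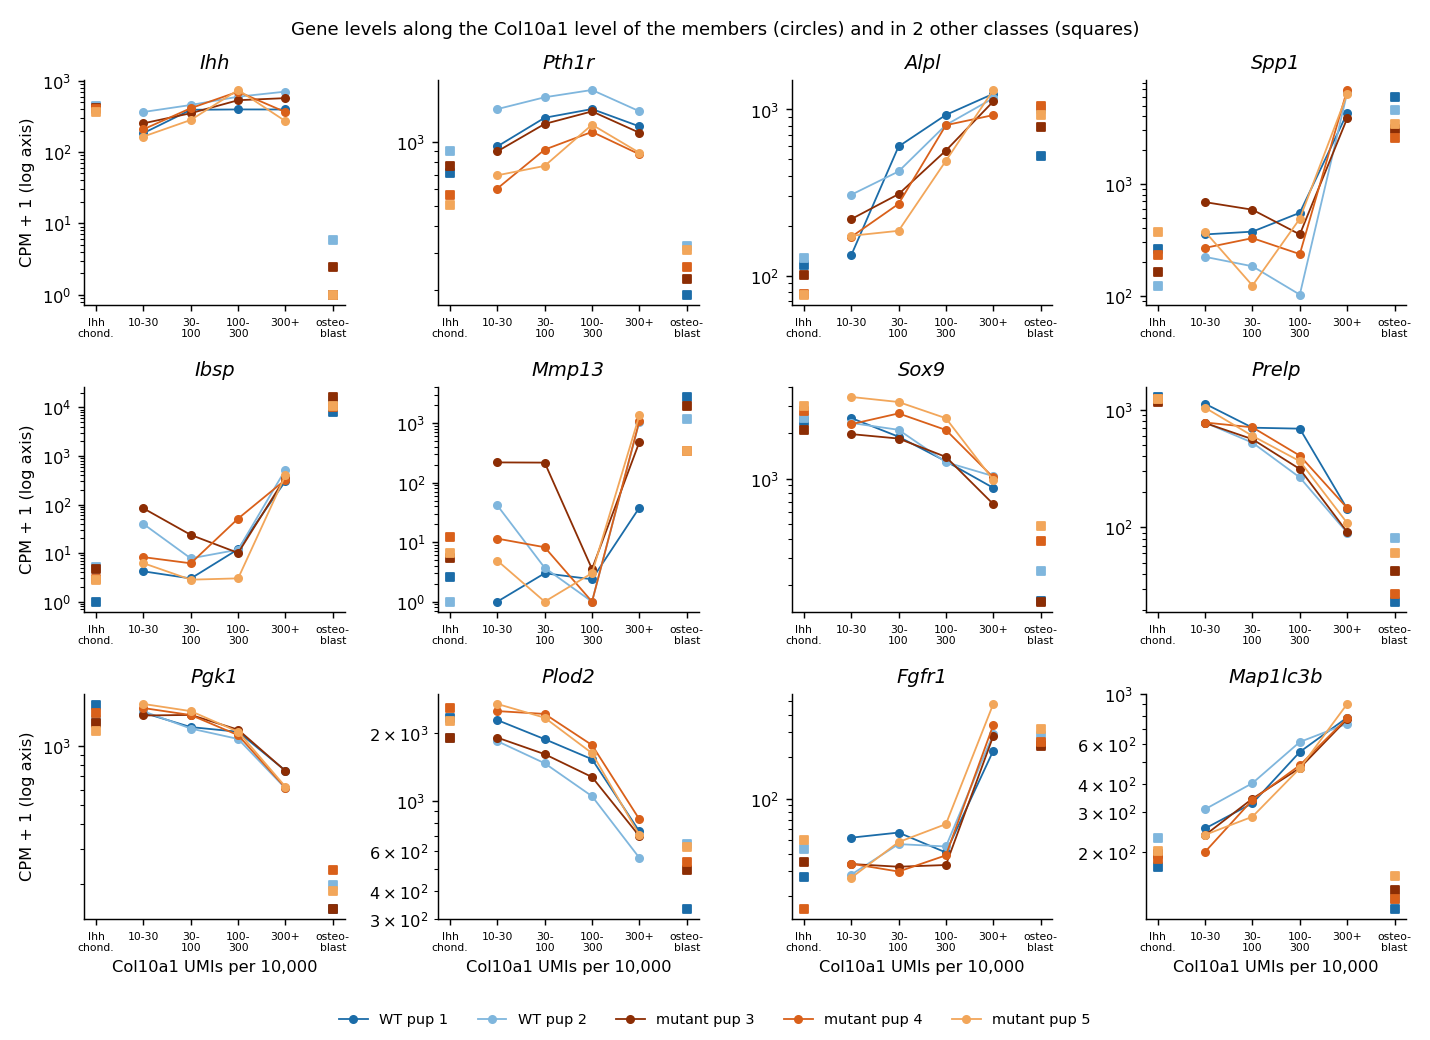
Levels of 12 genes in CPM + 1 on log axes, with 1 line per pup over 4 bins of the Col10a1 level of the members (circles) and, for reference, Ihh chondrocytes and osteoblast lineage cells of the same pups (squares). Alpl and Map1lc3b climbed through the bins, Spp1, Ibsp and Fgfr1 changed mainly at a k of 300 or more, and Sox9, Prelp, Pgk1 and Plod2 declined.

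The late markers were then counted cell by cell. Ibsp or Mmp13 reached a k of 10 in 41 of the 817 cells (5.02%), 2, 11, 17, 7 and 4 by pup, and 10 of these cells had both. Their median Col10a1 k was 639, against 72.6 in the other members. At a k of 300 or more 33 of 136 cells (24.3%) were of this kind, and under 300 only 8 of 681 (1.17%). Of the 41 cells, 35 had Spp1 at a k of 10 and 16 had Ihh at a k of 2. The members with a Col10a1 k of 300 or more held 76.3% of the Ibsp, 70.7% of the Mmp13, 70.9% of the Spp1 and 99.2% of the Dmp1 UMIs found in members, but 17.9% of the Ihh UMIs, of which 41.6% lay in the bin from 100 to 300.

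The UMIs of Mmp13 and Dmp1 lay in few cells. For Mmp13, 3048 UMIs were spread over 58 cells and the top 10 cells held 80.9%. In mutant pup 5, 1 cell held 317 of 356 Mmp13 UMIs (89.0%), so that the pup's level rests on it. For Dmp1, 665 UMIs were found in 24 cells and the top 10 held 94.6%. In WT pups 1 and 2 and mutant pup 5, 1 cell held 93.2%, 84.3% and 98.3% of the pup's Dmp1 UMIs, so that these levels rest on single cells as well. For Ibsp the top 10 of 151 cells held 43.1% of 1557 UMIs, for Spp1 the top 10 of 347 cells held 35.1% of 21725, and for Ihh the top 10 of 674 cells held 7.56% of 8980. Ihh was thus the most evenly spread of the 5 genes and Dmp1 the least.

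**Figure D4:**
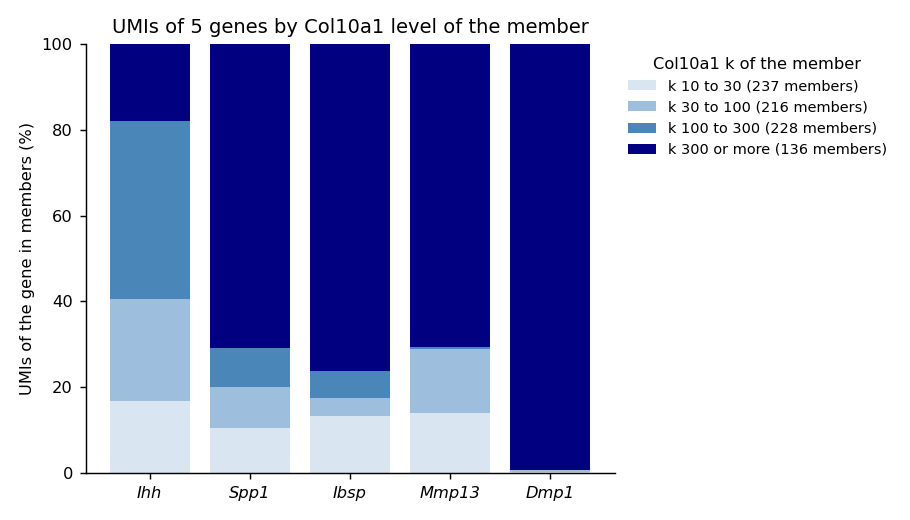
Percent of the UMIs of Ihh, Spp1, Ibsp, Mmp13 and Dmp1 found in members, split by the Col10a1 level of the member that held them, from a k of 10 to 30 (lightest) to 300 or more (darkest). The 136 members in the darkest part held 17.9% of Ihh UMIs and 70.7% to 99.2% of those of the other 4 genes.

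The 41 cells with Ibsp or Mmp13 were described beside the other members without a test, since both genes chose them. Fgfr1 was at 658 to 755 CPM in them and 45.6 to 65.4 CPM in the others. Vegfa was at 349.7, 944, 944, 1084 and 419.7 CPM, against 168 to 281 CPM, and Spp1 at 2583 to 19012 CPM against 313 to 1022 CPM. Sox9 was at 389 to 964 CPM against 1537 to 2936 CPM. These genes were picked for description, and the share of all genes that separate the cells in this way was not counted. Acan overlapped, at 4839 to 12752 CPM in the cells with late markers and 6893 to 8537 CPM in the other members. WT pup 1 had only 2 cells with late markers.

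To compare detection between pups, each cell was thinned to 2000 UMIs in 1 random draw. A UMI of Spp1 was then found in 39.7% and 15.5% of the Col10a1-high chondrocytes of the WT pups and in 30.4%, 28.3% and 25.9% of those of the mutant pups. WT pups were the highest and the lowest (difference of means 0.600 percentage points, 2-sided exact permutation test, p = 0.9). Ibsp was found in 5.13% and 7.49%, and in 8.33%, 5.03% and 4.94% (difference -0.206, exact p = 0.8), and Mmp13 in 2.56% and 5.88%, and in 3.85%, 4.40% and 2.47% (difference -0.651, exact p = 0.7). Any of the 3 was found in 41.0% and 18.7%, and in 32.7%, 31.4% and 27.2% (difference 0.562, exact p = 0.9). Ihh was found in 28.2% and 53.5%, and in 43.6%, 43.4% and 34.6% (difference -0.323, exact p = 1). The labels overlapped for all of these shares, and after adjustment over these 5 tests and that of the share of members the p-values were all 1.

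Macrophages were taken as cells that should lack Ibsp and Ihh but can express Spp1. Whether their Mmp13 UMIs are background was not tested. With medians of 6116.5 to 9122.5 UMIs per cell, their shares after the same thinning were 0% to 0.568% for Ibsp, 2.00% to 2.84% for Mmp13, 2% to 18.2% for Spp1 and 0% for Ihh. Without thinning, Mmp13 was found in 6.41%, 7.49%, 7.37%, 5.66% and 8.64% of the Col10a1-high chondrocytes and in 8%, 4.17%, 6.25%, 5.81% and 2.27% of macrophages. The share of cells with an Mmp13 UMI was at or below that of macrophages in WT pup 1 and mutant pup 4. In WT pup 1, where no member reached an Mmp13 k of 10 and the 5 cells with a UMI held 15 UMIs, it cannot be told from the share in macrophages, whereas 5 members of mutant pup 4 reached that level and the 9 cells with a UMI there held 412 UMIs. Ibsp without thinning was found in 12.3% to 20.8% of the Col10a1-high chondrocytes and in 0% to 4% of macrophages, and Spp1 in 26.7% to 56.4% and 10.5% to 20.5%.

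Because Ibsp, Spp1 and Mmp13 are shared with bone cells, the Col10a1-high chondrocytes were set beside 332 osteoblast lineage cells, taken by an Ibsp k of at least 10, Col1a1 UMIs at or above those of Col2a1 and a Col10a1 k under 10. The balance of Col2a1 and Col1a1 and, for the osteoblast lineage cells, Ibsp chose the classes, so that higher cartilage matrix genes and lower osteoblast genes in the members are not independent of the selection, while Alpl and Runx2 were found in both and Panx3 was higher in the members. Of 9569 genes tested, 22.2% were higher and 22.6% lower in the Col10a1-high chondrocytes. Of 22 tested cartilage matrix genes, 20 were higher and none lower (median log2 fold change 4.07, against -0.01 over all genes), with Hapln1 at 6.30 ± 0.23 SE, Snorc, a cartilage proteoglycan gene, at 6.07 ± 0.50 and Matn3, a matrilin gene, at 5.72 ± 0.46. Hypoxia and glycolysis genes were higher in 23 of 29 and lower in 1. Scin, a gene for an actin-severing protein, was at 3.25 to 12.3 CPM in osteoblast lineage cells, and the members were higher by 6.63 ± 0.25. Ihh and Foxa2 were at 0 to 4.80 and 0 to 3.73 CPM there, and no fold is given against levels so low.

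In the osteoblast marker list 12 of 15 tested genes were lower in the Col10a1-high chondrocytes and 1 higher (median -4.61). Ibsp, which chose the osteoblast lineage cells, was at 8061 to 16424 CPM in them. Spp1 was at 5996, 4524, 3074, 2568 and 3420.2 CPM in them, above the members of every pup (log2 fold change -1.99 ± 0.15, adjusted p = 2.51e-08), and the members at a k of 300 or more, at 3842 to 6891 CPM, overlapped with that range. Cdh2, the N-cadherin gene, Bglap2, an osteocalcin gene, and Dmp1 were also lower in the members. Bglap2 did not pass the filter on low counts within the members, and the Dmp1 UMIs of each pup's members lay mostly in 1 cell. No fold is given for these genes. Phex had a log2 fold change of -3.47 ± 0.26. Sp7 was lower as well (-1.45 ± 0.14), and Pth1r, also a receptor gene of osteoblasts, was higher (1.98 ± 0.18). Mmp9, the gelatinase gene of osteoclasts and late cartilage, was at 0 to 7.73 CPM against 155 to 932 CPM, without overlap, and no fold is given for it. Mmp13, at 2765, 1199, 1918, 339.5 and 346 CPM in osteoblast lineage cells, did not pass the test (-3.20 ± 1.19, adjusted p = 0.0997), though it was called with DESeq2 (-3.15, adjusted p = 0.00349), without the pup block (-3.45, adjusted p = 0.00979) and without WT pup 1 (-2.48, adjusted p = 0.0367). Runx2 was at 308 to 415 CPM in the members and 262 to 418 CPM in osteoblast lineage cells, and Panx3 at 2040.0 to 2489 and 358 to 605 CPM (1.98 ± 0.16). Alpl was at 522 to 1043 CPM there (log2 fold change -0.84 ± 0.25, adjusted p = 0.0219), a call that was lost without any 1 pup other than WT pup 1 (adjusted p up to 0.0824). Trpv4 was at 29.7 to 45.7 CPM there, below the members of each pup (2.31 ± 0.15).

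The design asks whether the activated Trpv4 allele changes gene expression in these cells, and the UMI sums of the 2 WT and 3 mutant pups were compared for that. No gene passed the threshold. Trpv4, the targeted gene, is given first, at 244 and 166 CPM in the WT pups and 158, 244 and 224 CPM in the mutant pups (log2 fold change 0.02 ± 0.25, adjusted p = 0.999). The labels overlapped for Trpv4, and a count per gene does not tell the knock-in allele from the normal one, so that it does not check the labels. Of 10998 genes tested with edgeR, 0% were called, 393 had an unadjusted p under 0.05, and DESeq2 called 1, Tagln. With no filter on low counts 26 were called. Without mutant pup 5 the 5 genes called were Xist, Ddx3y, Eif2s3y, Kdm5d and Uty, which follow sex.

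The 10 genes with the lowest p did not reach an adjusted p below 0.997. Several are genes of smooth muscle. Tagln was at 25.01 and 7.80 CPM in the WT pups and 1.03, 0.289 and 0 CPM in the mutant pups. Myh11 was at 15.5 and 4.54 CPM in the WT pups and 0.902, 0.578 and 1.45 CPM in the mutant pups. WT pup 1 was highest for both. Tagln and Myh11 passed the filter on low counts only through the WT pups, and no fold is given for them. Pericyte markers summed to 17.5 to 73.7 CPM in the members, and their part in these values was not tested. The other 8 of the 10 were Filip1l, Tpm2, Clu (log2 fold change 1.13 ± 0.28 SE), Fabp7 (0.61 ± 0.16), Myl9, Erbb3, Col11a2 and Alpl. Filip1l, Tpm2, Myl9 and Erbb3 were lower in the mutant pups in the fit. Their means were only 5.86, 6.24, 5.96 and 2.61 CPM, and no fold is given for them. Col11a2, a cartilage collagen gene, was at 6838 and 7319 CPM in the WT pups and 5829.8, 4878 and 5649 CPM in the mutant pups (-0.38 ± 0.10, adjusted p = 0.997), the mutant pups being below the WT pups. Alpl (-0.49 ± 0.13, adjusted p = 0.997) and Pth1r (-0.53 ± 0.16, adjusted p = 0.997) were likewise lower in every mutant pup, at the levels given above. The pups also differed in median Col10a1 k, mutant pups 4 and 5 being lowest (47.1 and 51.4) and mutant pup 3 highest (116). Within the lowest and within the highest Col10a1 bin, WT and mutant pups overlapped for Alpl. The part of the Col10a1 level in these values was not tested. With no filter on low counts Col11a2, Alpl and Pth1r were called (adjusted p = 0.0398, 0.0398 and 0.0027).

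Mutant and WT pups did not overlap in 2182 of the 10998 genes tested (19.8%), 9.64% of all genes being above in the mutant pups and 10.2% below. In the hypoxia and glycolysis list 8 of 33 genes were above without overlap and none below (Pfkp, Pgk1, Ldha, Bnip3l, Egln1, Egln3, Adm and P4ha1), and 27 of 33 had a positive log2 fold change (median 0.18, against -0.00 over all genes). In the cartilage matrix list none of 23 was above and 7 were below (Col9a3, Col11a1, Col11a2, Acan, Comp, Epyc and Snorc), with a median of -0.06. In the hypertrophy list 1 of 36 was above (Foxa2) and 4 were below (Pth1r, Alpl, Panx3 and Anxa6). The BMP and TGF-beta list had 6 above and 1 below of 41, and the ER list 7 above of 40. No gene of any list was called, so these counts describe 5 pups and 1 litter.

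Genes of TGF-beta and BMP signalling were looked at because the study turned to that pathway in proliferating cells. Smad1, which carries the BMP signal, was at 138 and 157 CPM in the WT pups and 142, 138 and 139.5 CPM in the mutant pups (log2 fold change -0.08 ± 0.11, adjusted p = 0.997). Bmp7, a BMP ligand gene, was at 16.4 and 17.4 CPM in the WT pups and 22.0, 16.2 and 11.6 CPM in the mutant pups (0.03 ± 0.25, adjusted p = 0.999) and Tgfb3, a TGF-beta ligand gene, at 20.01 and 25.9 CPM in the WT pups and 31.0, 16.5 and 17.4 CPM in the mutant pups (-0.05 ± 0.28, adjusted p = 0.999). The labels overlapped for Tgfb3 and Bmp7, and for Smad1 the 5 pups lay within 138 to 157 CPM. The study reported Sox9, Nfatc1 and Acan as increased in perichondrial cells, which are other cells than these. It reported Vegfa as decreased in subsets of proliferating chondrocytes, a group in which it counted prehypertrophic cells. Whether that group shares cells with the members was not tested. In the members Sox9 had a log2 fold change of 0.32 ± 0.28, Nfatc1 of -0.42 ± 0.13, Acan of -0.16 ± 0.09 and Vegfa of 0.35 ± 0.15 (SE), none of them past the threshold. Acan was also lower in every mutant pup than in both WT pups in the Col10a1-low and the Ihh chondrocytes, which came from the same pups. The share of all genes without overlap was not counted in those classes. In all kept cells the labels overlapped for Acan, at 4085 and 3941 CPM in the WT pups and 3033, 3404 and 4255 CPM in the mutant pups. Mmp13 had a log2 fold change of 1.01 ± 1.18, adjusted p = 0.997, and without WT pup 2 it was 4.52 with an adjusted p of 0.0237, a value set by WT pup 1 alone, which had 15 Mmp13 UMIs.

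**Figure D5:**
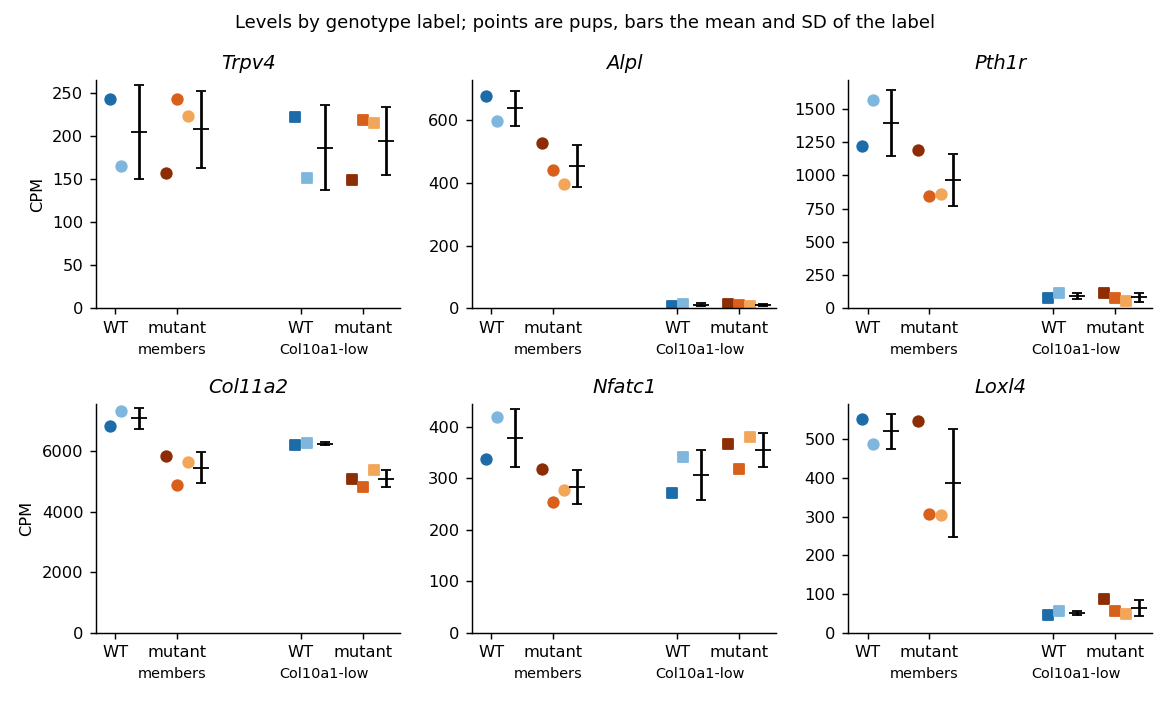
Levels of 6 genes in CPM by label in members (circles) and in Col10a1-low chondrocytes (squares), with 1 point per pup and the mean and SD of the 2 WT and 3 mutant pups beside the points. Alpl, Pth1r, Col11a2 and Nfatc1 were lower in every mutant pup than in both WT pups in members, and Trpv4 overlapped in both classes. The pups were not matched for the Col10a1 level of their members.

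Whether the effect of the label differed between the Col10a1-high and the Col10a1-low chondrocytes was tested as the interaction of class and label. Of 18716 genes tested, 31 were called (0.166%), 16 with a higher (0.0855%) and 15 with a lower effect (0.0801%) in the Col10a1-high chondrocytes, and DESeq2 called 3 (Cpa3, Loxl4 and Nfatc1). Nfatc1, a transcription factor that calcineurin activates, was at 338 and 418 CPM in the WT pups and 319, 253 and 277 CPM in the mutant pups in the Col10a1-high chondrocytes and at 271 and 341 CPM in the WT pups and 367, 318 and 379.6 CPM in the mutant pups in the low class. Mutant pups were below the WT pups in the former, and in the low class mutant pup 4 lay between the WT pups and the others above both (log2 difference of the effects -0.69 ± 0.11, adjusted p = 2.45e-05). Loxl4, a lysyl oxidase-like gene, was at 552 and 488 CPM in the WT pups and 547, 307 and 303 CPM in the mutant pups and at 46.6 to 88.3 CPM in the low class, and mutant pup 3 lay between the WT pups in the members (-0.83 ± 0.12, adjusted p = 3.61e-07). Nfatc1, Loxl4, Fxyd2 and H1f3 were called with each pup left out in turn. The median Col10a1 k of the members was 89.4 and 75.4 in the WT pups and 116, 47.1 and 51.4 in the mutant pups. The part of the Col10a1 level in these interaction calls was not tested. The number of genes called was 115 and 123 without WT pup 1 and 2, and 120, 52 and 43 without mutant pup 3, 4 and 5.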

How the data were processed

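The authors made the count tables from BD Rhapsody reads with a commercial pipeline (mm10, from the submitters' processing notes; its version is not given in the sources used here), and the deposited values are raw UMI counts per gene and cell. Cells were filtered with the study's limits. The members, gene lists and comparison classes were chosen with earlier results of these data known. UMIs were summed per pup and class and tested with edgeR 4.0.16 in R 4.3.3 (quasi-likelihood test, TMM normalization, filterByExpr, Benjamini-Hochberg adjustment, threshold 0.05); log2 fold changes are given with the standard error (SE). Class comparisons took the pup as a block, since both sums came from the same animal. Collagen genes of the rule, and Ihh or Ibsp where they chose the other class, were left out of the calls. CPM are UMIs per 1000000 of a class sum, not corrected for gene length. Shares of the labels were set against each other by an exact permutation test, 2-sided, of the 10 placements of the pups, after thinning to 2000 UMIs for detection. DESeq2 1.42.0, other normalizations, filters and thresholds and each pup left out were alternatives. Named genes came from the lists, and from the 10 largest changes in each direction at a mean of at least 50 CPM among called genes, or the 10 lowest p for the genotype. The tests were tested on simulated data. Intervals cover counting error only.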

Additional observations from a re-analysis of the deposited data

Results flagged for a closer look

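The effect of the genotype label differed between Col10a1-high and Col10a1-low chondrocytes, by the interaction test of edgeR, for 31 genes, and the 10 with the lowest p are given here with the difference of the effects as log2, Col10a1-high minus Col10a1-low. Only Nfatc1 (-0.69 ± 0.11, adjusted p = 2.45e-05) and Loxl4 (-0.83 ± 0.12, adjusted p = 3.61e-07) were also called by DESeq2 and with each pup left out, and their levels stand in the report. The pups differed in the Col10a1 level of their members, and its part in these values was not tested.

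Mast cell protease genes made up 4 of the 10. They are Mcpt4 (6.22 ± 0.62, adjusted p = 3.56e-13), Cpa3 (5.58 ± 0.64, adjusted p = 1.45e-10), Tpsb2 (5.25 ± 0.74, adjusted p = 3.61e-07) and Cma1 (5.44 ± 0.93, adjusted p = 0.000136). In the Col10a1-high chondrocytes Mcpt4 was at 0 and 0.726 CPM in the WT pups and 34.7, 0 and 0 CPM in the mutant pups, and in the low class at 0.102 and 13.8 CPM in the WT pups and 7.92, 0.0896 and 0.0576 CPM in the mutant pups. Cpa3 was at 26.9 CPM, Tpsb2 at 17.9 CPM and Cma1 at 11.2 CPM in the members of mutant pup 3, and each was at most 0.726 CPM in those of the other pups. Mutant pup 3 thus stood alone, and its UMIs of these genes lay in members with a Col10a1 k under 100. Without mutant pup 3 the Mcpt4 value was -0.88, and the part of mast cell RNA in these values was not tested.

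The other 4 genes were the histone gene H1f3 (1.39 ± 0.25, adjusted p = 0.000493), Fxyd2, a regulator of the sodium pump (-0.77 ± 0.14, adjusted p = 0.000824), Fabp7, a fatty acid-binding protein gene (0.90 ± 0.17, adjusted p = 0.00192), and Timp1, an inhibitor of metalloproteinases (-0.60 ± 0.12, adjusted p = 0.00241). Fabp7 was at 30.0 and 34.7 CPM in the WT pups and 46.1, 49.4 and 55.0 CPM in the mutant pups and Timp1 at 339 and 275 CPM in the WT pups and 274, 185 and 209.6 CPM in the mutant pups in the Col10a1-high chondrocytes, and in them the mutant pups lay above both WT pups for Fabp7 and below both for Timp1. H1f3 was at 4.09 and 9.80 CPM in the WT pups and 11.3, 12.4 and 20.8 CPM in the mutant pups and Fxyd2 at 221 and 123 CPM in the WT pups and 78.7, 101 and 139 CPM in the mutant pups, where mutant pup 5 overlapped with the WT pups for Fxyd2. None of these 4 genes was called for the label in the Col10a1-high chondrocytes alone, where Fabp7 had a log2 fold change of 0.61 ± 0.16. The interaction values also rest on the low class, whose levels of these genes are not given here.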

How the results depend on the processing

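Differences in shares between labels, mutant minus WT, changed sign with the settings, and none passed its test. Each thinned share is 1 random draw, made anew for each setting. The same 81 members of mutant pup 5 had any late marker in 27.2% in the main draw and in 32.1% with no upper limit on genes. The spread over repeated draws was not tested. The share of members was between -0.0938 and 0.519 percentage points with each pup left out, and kept its sign in all 9 other settings, falling to 0.0272 with no upper limit on genes. The share with any late marker was -1.24 thinned to 5000 UMIs, -2.78 from a k of 50, and -10.6 to 11.7 with a pup left out. For Ibsp it was -4.75 without thinning, -2.49 at 5000 UMIs, -2.01 from a k of 50, 0.312 with no upper limit on genes, and -1.39 to 0.973 with a pup left out. For Mmp13 it was 0.276 without thinning, 0.959 at 5000 UMIs, 1.48 from a k of 50, 1.52 with no limit on genes, and -2.31 to 1.01 with a pup left out. For Spp1 it was -1.82 at 5000 UMIs, -4.11 from a k of 50, and -11.5 to 12.7 with a pup left out. For Ihh it was -4.52 without thinning, -6.11 at 5000 UMIs, 1.81 from a k of 50, 1.26 with no limit on genes, and -13.0 to 12.3 with a pup left out, and the cause was not tested.

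Genes called between labels numbered 1 with DESeq2, 26 with no filter on low counts and 0 to 5 with a pup left out. Calls against Ihh chondrocytes numbered 1399 with DESeq2 and 1544 without the pup as a block, those within the members 992 and 988. Against the low class and the osteoblast lineage cells there were 9403 and 4515 calls without the block, and the pairing of sums rests on the animal. Interaction calls numbered 3 with DESeq2, 71 with no filter and 43 to 123 with a pup left out. Single genes turned for Sox9 against the low class (-0.12 from a k of 50), Panx3 within the members (-0.21 and called for a split at 200, -0.033 to 0.055 with a pup left out), and, for the labels, Smad1 (0.037 from a k of 50), Bmp7 (-0.53 without mutant pups 3 and 4, -0.25 to 0.19 with 1 left out), Tgfb3 (-0.46 to 0.14) and Trpv4 (-0.26 to 0.35). The interaction of Mcpt4 was -0.88 to 7.29 with a pup left out. Scrublet's own doublet calls could not be used, since there were none, and a score of 0.25 was chosen after seeing the data. Members were deep, but 78 and 81 cells in WT pup 1 and mutant pup 5 limit rare markers there.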

Other observations

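Matrix proteases and their inhibitors were counted in each comparison. Against Col10a1-low chondrocytes 13 of 22 tested proteases and inhibitors were lower and 3 higher in the edgeR test, against 30.7% and 26.3% of all genes. The membrane collagenase gene Mmp14 was at 63.7 to 88.4 CPM against 194 to 251 CPM (log2 fold change -1.55 ± 0.08 SE), the gelatinase gene Mmp2 fell (-1.72 ± 0.07), and the 3 that rose were Mmp13, Adamts1 (0.91 ± 0.11) and Mmp11 (0.85 ± 0.29). The call of Mmp11 was lost among cells of at least 10000 UMIs (0.61, adjusted p = 0.101) and without either WT pup. Against Ihh chondrocytes 6 of 17 were higher, 3 lower and 8 not called, and against osteoblast lineage cells 1 of 19 was higher and 13 lower. The inhibitor gene Timp3 was higher than in Ihh chondrocytes (1.05 ± 0.21). Among vascular and osteoclast signals 9 of 15 were lower and 3 higher than in the low class. Those that fell include Cxcl12, a chemokine gene (-1.84 ± 0.17), Csf1, a growth factor gene of osteoclast precursors (-1.87 ± 0.11), and Tnfrsf11b, the osteoprotegerin gene (-1.24 ± 0.16). Ccn2, Ccn1 and Vegfa rose (0.86 ± 0.07, 0.43 ± 0.06 and 0.37 ± 0.06). The call of Ccn1 was lost among cells of at least 10000 UMIs (0.10, adjusted p = 0.132). The RANKL gene Tnfsf11 was at 0 to 3.81 CPM in the members.

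In the growth hormone and IGF list the binding protein gene Igfbp5 was at 16.9 to 69.6 CPM against 151 to 213 CPM in the low class (-2.29 ± 0.27 SE), and the growth hormone receptor gene Ghr was lower than in the low class (-0.74 ± 0.07) but higher than in Ihh chondrocytes (0.53 ± 0.12). In edgeR the Ghr call against the low class was lost among cells of at least 10000 UMIs (-0.18, adjusted p = 0.102). Its call against Ihh chondrocytes was lost without the pup block (0.51, adjusted p = 0.0592). Irs1, an insulin and IGF signal carrier, was lower than in Ihh chondrocytes (-0.66 ± 0.07) and also lower in the members with more Col10a1 (adjusted p = 0.00112). Genes of the response to tissue digestion were lower in 10 of 24 and higher in 3 against Ihh chondrocytes (13.3% and 14.9% of all genes), with Fos and Jun at -1.02 ± 0.07 and -0.85 ± 0.04. The sum of that list was 11056 to 15526 CPM in the members and 15071 to 21202 CPM in the low class.

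A further 40 cells had a Col10a1 k of at least 10 but at least as many Col1a1 as Col2a1 UMIs, 4, 11, 17, 5 and 3 by pup. In them Mmp13 was at 0 and 9.96 CPM in the WT pups and 5490.1, 5115 and 751 CPM in the mutant pups, and Ibsp at 25.05 and 39.9 CPM in the WT pups and 828, 231 and 0 CPM in the mutant pups. Mmp13 was high in mutant pups 3 and 4, but with 3 to 17 cells per pup the levels rest on single cells, and no test was made.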
